A study of Nicotiana benthamiana with 9 samples.

Results

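Transcripts of the chloroplast and of a plastid RNA editor were compared between wild-type Nicotiana benthamiana leaves labelled 2 and 3 days post infiltration (dpi). The members were all 9 libraries of the series, divided by the day in their titles into 3 libraries labelled 2 dpi and 6 labelled 3 dpi. All leaves received the silencing suppressor P19. One group received P19 alone (1 library at 2 dpi, 2 at 3 dpi), and the others also received the editing factor dPPRerpl2 from the vector pGWB2 (1 and 2) or pMDC32 (1 and 2). The 2 dpi library is replicate 1 of each group, and the 3 dpi libraries are replicates 2 and 3, so labelled day and replicate number cannot be told apart. The titles and treatment labels give these days, whereas the series text names 3 dpi alone. The text calls the libraries biological replicates without naming plants or leaves, so the p-values measure the spread between these libraries. Expression was transient in infiltrated leaf tissue, and no source used here names the promoters of the vectors. The deposited count table held 106 rows, of which 105 were plastid rows (80 coding, 21 tRNA and 4 rRNA) and 1 was the editor transgene.

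In Agrobacterium-mediated transient expression a transgene enters leaf cells as T-DNA, and its transcript accumulates over the days after infiltration, with P19 protecting it from small-RNA-guided silencing. The editor is built on pentatricopeptide repeats, modules that bind single-stranded RNA, and it is named for rpl2, a plastid gene of the large ribosomal subunit. Plastid genes lie in operons read by a plastid-encoded and a nuclear-encoded RNA polymerase. The rRNA operon carries rrn16, rrn23, rrn4.5 and rrn5 together with tRNA genes, and it supplies the RNA of the plastid ribosome.

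Libraries held 32457135 to 44392760 counted reads. The row of rbcL, the large subunit of Rubisco, stood at 136716 to 161170 CPM (counts scaled to library size with edgeR's TMM factors) in the 9 libraries. Only plastid and transgene rows were counted, so this level cannot check the leaf label. P19 replicate 1 stood apart before any test. Transcripts of psbA, which encodes the photosystem II protein D1, made up 61.1% of its counts against 44.0% to 52.6% in the other 8 libraries. Its TMM factor was 0.742 against 0.956 to 1.09 elsewhere. It had the lowest CPM of the 9 libraries in 41 of 105 plastid rows and the highest in 34. P19 replicate 2 was the lowest in 22 rows and the highest in 29, so the P19 libraries lay at both ends for many genes. P19 replicate 1 lay outside the range of P19 replicates 2 and 3 in 93 of 105 plastid rows (88.6%). For this reason the 6 editor libraries are described first and all 9 libraries after them. Tests are edgeR's quasi-likelihood tests on the counts, adjusted over all 106 rows by the Benjamini-Hochberg method (edgeR adjusted p), with a threshold of 0.05.

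The editor transgene was the row with the largest day difference in editor leaves. With pGWB2 it reached 1221 CPM at 2 dpi and 4266 and 4236 CPM at 3 dpi. With pMDC32 it reached 2599 CPM at 2 dpi and 9675 and 6197 CPM at 3 dpi. Both 2 dpi libraries lay below all 4 libraries of 3 dpi, and at each replicate number pMDC32 exceeded pGWB2, by 2.13, 2.27 and 1.46 times. P19 libraries held 0 reads of it at 2 dpi and 11 and 4 at 3 dpi. The 0 allows up to 0.116 CPM (3 counts, counting error only). Taken as 2 dpi minus 3 dpi, the 6 editor libraries gave a log2 difference of -1.73 (SE 0.15, edgeR adjusted p = 3.84e-25), a 3.31-fold higher level at 3 dpi. In bulk leaf RNA, fewer expressing cells and less transcript per cell cannot be told apart. The difference did not differ detectably between vectors, with -1.80 for pGWB2 and -1.58 for pMDC32 (difference 0.20, SE 0.31, 95% interval -0.45 to 0.85). All pGWB2 libraries came from sequencing lane 4, and within lane 8 the pMDC32 libraries differed by -1.90. Without pooling of the spread across genes the log2 difference kept its value and its edgeR adjusted p was 0.18.

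Among plastid rows, the 7 that passed the test in editor leaves were all lower at 2 dpi (6.67% of 105), and 5 of them lie in the rRNA operon region. These were rrn16, rrn23 and rrn4.5, parts of the ribosomal RNA, and trnA and trnR, the tRNAs for alanine and arginine. The region spans 131630 to 139892 on the plastid sequence of the deposited table, for which no source used here names a build, and it holds 8 rows. All 8 were below 0, from -1.36 to -0.28 with a median of -0.65, beside a median of -0.03 over all plastid rows. The libraries were depleted of rRNA before sequencing, so rRNA rows hold what depletion left. The part of depletion in these differences was not tested. The rps12 row (71935 to 142293, plus strand) is listed across the whole region, while the rRNA rows, trnA and trnR are on the minus strand. The libraries were directional, but the strand setting of the counting is not stated, and the rps12 row itself differed by -0.13 (SE 0.09).

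The small-subunit rRNA row rrn16 (138103 to 139593, minus strand) stood at 70.4 CPM in the pGWB2 library of 2 dpi and at 151 and 147 CPM at 3 dpi. In pMDC32 leaves it stood at 106 CPM at 2 dpi and 226 and 154 CPM at 3 dpi. No 2 dpi editor library reached any 3 dpi editor library. The means were 88.0 ± 25 CPM (SD, n = 2) and 169 ± 38.1 CPM (SD, n = 4). The log2 difference was -0.98 (SE 0.14, edgeR adjusted p = 9.06e-10). P19 leaves went the other way, with 280 CPM at 2 dpi and 156 and 167 CPM at 3 dpi.

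The arginine tRNA row trnR (132290 to 132363, minus strand) had 83.4 CPM at 2 dpi and 146 and 202 CPM at 3 dpi with pGWB2. With pMDC32 it had 92.9 CPM at 2 dpi and 178 and 172 CPM at 3 dpi. Again the days did not overlap in editor leaves, and the log2 difference was -1.01 (SE 0.14, edgeR adjusted p = 3.78e-10). The P19 libraries had 197, 261 and 205 CPM, lowest at 2 dpi by a small margin.

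The alanine tRNA row trnA (136168 to 136949, minus strand, 782 nt), whose gene carries an intron in land plants, was the most abundant of the region. It had 2308 CPM at 2 dpi against 4271 and 5809 CPM with pGWB2, and 3958 against 5794 and 4654 CPM with pMDC32. The log2 difference was -0.77 (SE 0.14, edgeR adjusted p = 1.56e-06), and the 2 dpi libraries lay below all 3 dpi editor libraries. In P19 leaves it stood at 4545 CPM at 2 dpi and 6476 and 5914 CPM at 3 dpi, so that replicate 1 was lowest in each of the 3 groups.

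The other rRNA rows that passed were rrn23 and rrn4.5. The large-subunit row rrn23 (133205 to 136014, minus strand) had 296 against 426 and 386 CPM with pGWB2, and 393 against 523 and 457 CPM with pMDC32. Its log2 difference was -0.41 (SE 0.13, edgeR adjusted p = 0.0269), and the days overlapped, since 386 lies below 393 CPM. P19 replicate 1 held 912 CPM, above every other library. The short rrn4.5 row (133001 to 133103, minus strand) was counted in only 73 to 429 reads per library. It had 1.98 against 3.37 and 8.99 CPM with pGWB2 and 1.78 against 4.14 and 2.88 CPM with pMDC32, a log2 difference of -1.36 (SE 0.28, edgeR adjusted p = 2.77e-05).

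The remaining rows of the region did not pass. The valine tRNA row trnV had 11.5 against 16.9 and 17.7 CPM with pGWB2 and 12.2 against 16.5 and 16.0 CPM with pMDC32, a log2 difference of -0.53 (SE 0.19, edgeR adjusted p = 0.0738). The asparagine tRNA row trnN differed by -0.29 (SE 0.16), and rrn5, counted in 38 to 88 reads per library, by -0.28 (SE 0.37). The trnI row lies outside the region, beside rpl23 (153565 to 153638, plus strand), and differed by -0.32 (SE 0.15). In each of 7 of the 8 rows, the 2 dpi library lay below both 3 dpi libraries of its vector in both vectors, against 25 of all 105 plastid rows (23.8%). The exception was rrn5.

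Outside the rRNA operon region 2 rows passed in editor leaves. Transcripts of ccsA, whose product takes part in attaching haem to c-type cytochromes (116063 to 117004, plus strand, inside the listed span of rps12 on its strand), stood at 1214 against 1319 and 1904 CPM with pGWB2 and at 1055 against 1571 and 1441 CPM with pMDC32. The log2 difference was -0.49 (SE 0.14, edgeR adjusted p = 0.00721). The glycine tRNA row trnG (38017 to 38087, plus strand) had 20.7 against 28.8 and 37.9 CPM and 26.3 against 33.8 and 36.9 CPM, a log2 difference of -0.58 (SE 0.17, edgeR adjusted p = 0.0117). For both rows the days did not overlap in editor leaves. In P19 leaves ccsA was highest at 2 dpi, with 1859 against 1729 and 1437 CPM. The trnG row had 41.6 against 47.6 and 38.9 CPM there.

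**Figure D1:**
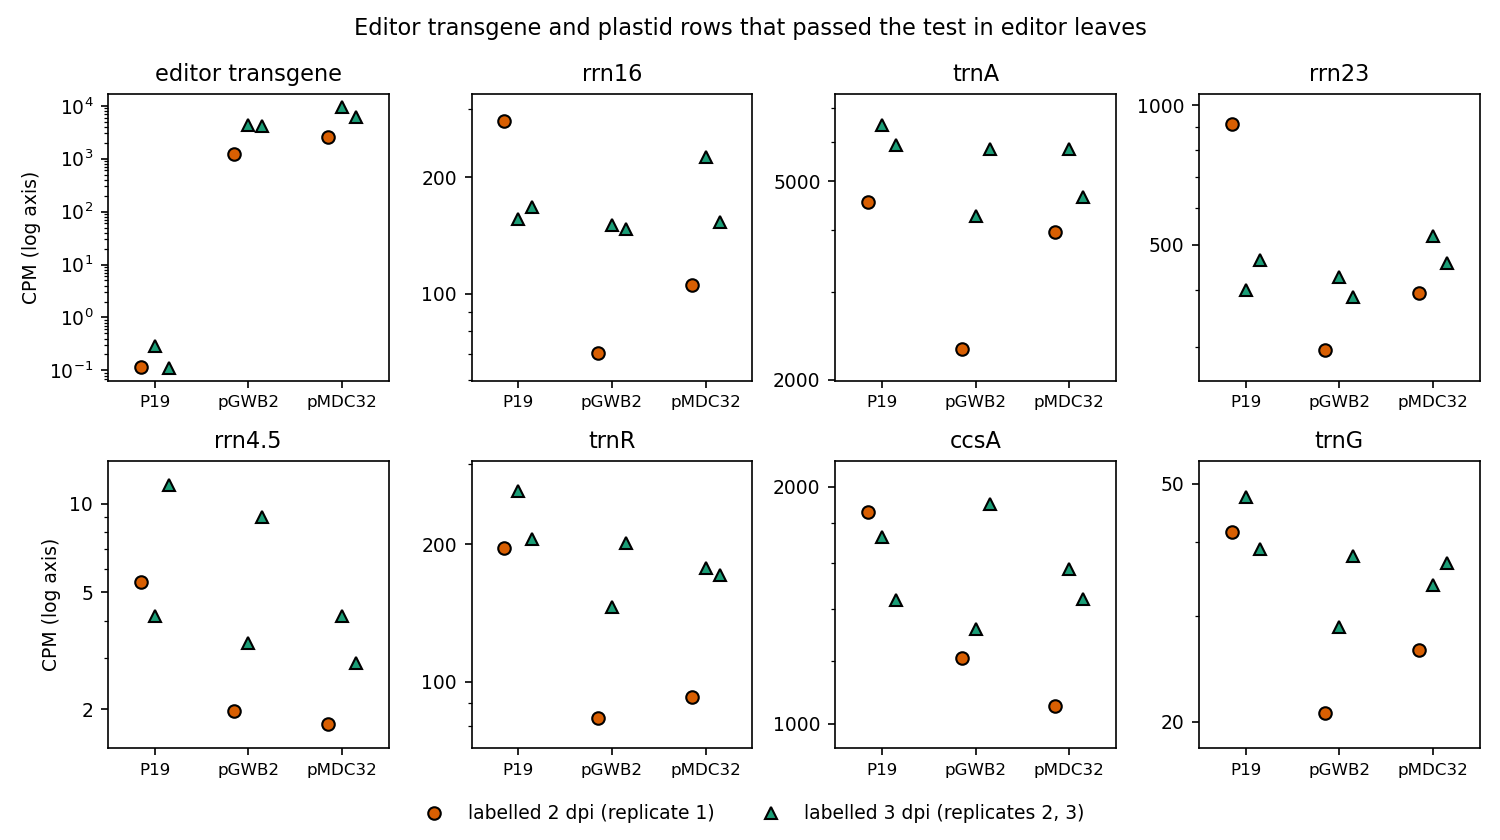
CPM (log axis) of the editor transgene and of the 7 plastid rows that passed the test in the 6 editor libraries, one point per library, circles for 2 dpi and triangles for 3 dpi. In both editor groups the circle lies below both triangles in every panel, and in P19 leaves rrn16, rrn23 and ccsA are highest at 2 dpi. P19 replicate 1, with 0 transgene reads, is drawn at its limit of 0.116 CPM.

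These 7 calls rest on few libraries. Without pGWB2 replicate 1 there were 0 calls and without pMDC32 replicate 1 there were 3 (trnR, trnA and rrn16). The test estimated an infinite prior weight, that is, it took the same spread for all rows around the trend, and with each row's own spread alone 0 rows passed (11 at an unadjusted p under 0.05). DESeq2 called 11 rows (the same 7 and, higher at 2 dpi, psbZ, ndhH, psbD and ndhI), limma-voom 9 (the same 7 with trnV and trnfM), and upper-quartile scaling left 2 (trnR and rrn16).

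No plastid row passed in the other direction by edgeR, and those with the smallest p among rows higher at 2 dpi belonged to photosystem II and the NDH complex. The psbD row, for the D2 protein, had 12948 against 11578 and 11672 CPM with pGWB2 and 15323 against 11389 and 10534 CPM with pMDC32 (log2 difference 0.30, SE 0.12, edgeR adjusted p = 0.108). Its operon partners psbC, for the antenna protein CP43, and psbZ, a small subunit, had differences of 0.21 (SE 0.11) and 0.25 (SE 0.13). In all 3 rows both 2 dpi libraries exceeded all 3 dpi editor libraries, a pattern shown by 20 of 105 plastid rows (19%), with 17 of 105 (16.2%) in the opposite order. The ndhH row, for a subunit of the NDH complex of cyclic electron flow, had 646 against 503 and 445 CPM and 588 against 541 and 448 CPM (0.33, SE 0.13, edgeR adjusted p = 0.107). For psbA the level was 484877 against 484130 and 437704 CPM with pGWB2 and 503042 against 402280 and 435545 CPM with pMDC32 (0.14, SE 0.06, edgeR adjusted p = 0.179).

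Other rows with small p lay lower at 2 dpi. The small-subunit ribosomal protein row rps16 had 1574 against 1866 and 2234 CPM and 1938 against 2264 and 2427 CPM (-0.36, SE 0.14, edgeR adjusted p = 0.107). The initiator tRNA row trnfM differed by -0.50 (SE 0.20), and psaC, the iron-sulfur subunit of photosystem I, by -0.34 (SE 0.14). Over all 105 plastid rows in editor leaves 59 lay lower and 46 higher at 2 dpi, 20 had an unadjusted p under 0.05, and the 95% interval lay within 2-fold in either direction for 100. These p-values and intervals use the spread pooled around the trend, not each row's own.

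The day differences of the vectors rest on separate libraries. They had the same sign in 81 of 105 plastid rows and a Pearson correlation across rows of 0.719 (0.5 over the 80 coding rows), given as a description because rows share libraries and scaling. The difference between vectors in the day effect, a test added after the data were seen, passed in 0 of 105 rows by edgeR (0%, 1 at an unadjusted p under 0.05, 0 by DESeq2 and by limma-voom). That 1 row was trnA, with -1.11 for pGWB2 and -0.39 for pMDC32. Within lane 8, pMDC32 replicate 1 minus replicate 2 was -1.10 for rrn16, -0.94 for trnR, -0.55 for trnA, -0.42 for rrn23, -1.21 for rrn4.5, -0.57 for ccsA and -0.36 for trnG. The pGWB2 differences, all within lane 4, were -1.08, -1.04, -1.11, -0.46, -1.47, -0.39 and -0.67 in the same order.

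**Figure D2:**
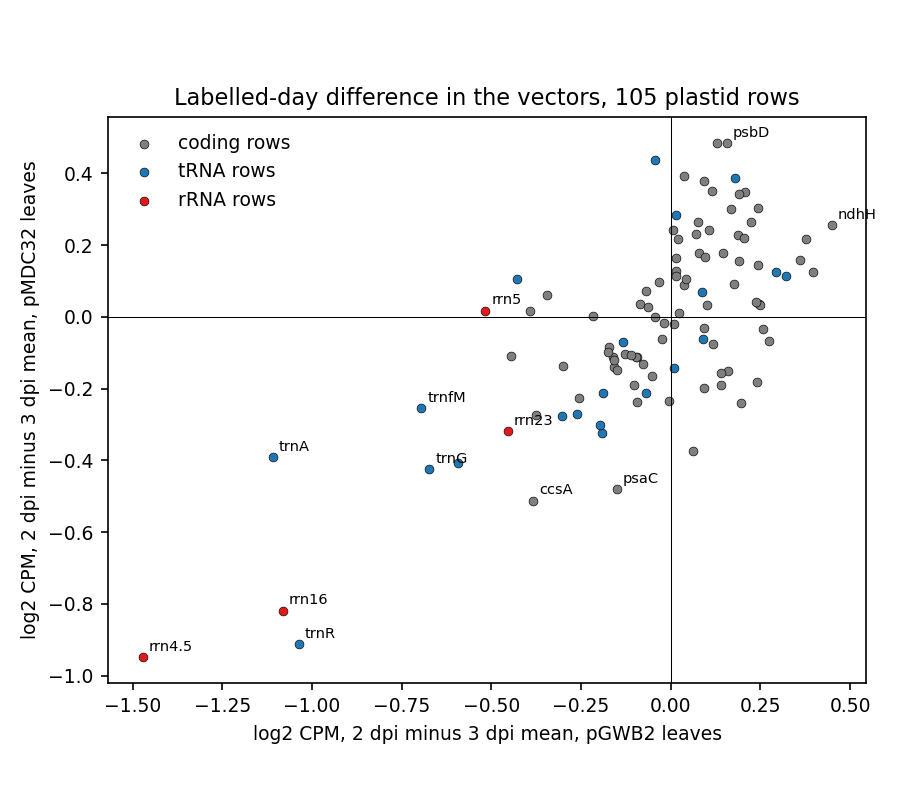
Log2 CPM difference between the 2 dpi library and the mean of the 3 dpi libraries, pGWB2 leaves (x axis) against pMDC32 leaves (y axis), one point per plastid row, coloured by RNA class. The rRNA and tRNA rows rrn4.5, rrn16, trnR and trnA extend furthest to the lower left, and coding rows lie between -0.51 and 0.49 on both axes.

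By function, the coding rows of editor leaves had small differences between the labelled days. Of 80 coding rows 1 passed (ccsA), 40 lay lower and 40 higher, and their median was 0.00. Over all 105 plastid rows 7 passed, 59 lay lower and 46 higher, and the directions within lists are a description. The 11 NDH rows had 8 above 0 (median 0.21, range -0.18 to 0.33) and the 6 ATP synthase rows had 5 above (median 0.18, range -0.13 to 0.24), with 0 passing in either list. Photosystem II was divided, with 8 of 15 rows above 0 (range -0.18 to 0.30). Its psbD, psbC and psbZ rows lay above, and the psbE, psbF, psbL and psbJ rows of a single operon, which encode cytochrome b559 and small subunits, all lay below (-0.18 to -0.16). Cytochrome b6f had 4 of 6 above 0 (median 0.04) and photosystem I had 1 of 5 above (median -0.17). All 4 rows of the plastid-encoded RNA polymerase lay below 0, with rpoC2 at -0.27 (SE 0.13), rpoC1 at -0.25 (SE 0.13), rpoB at -0.14 and rpoA at -0.07. Large and small ribosomal subunit rows had 5 of 9 and 8 of 12 below 0 (medians -0.05 and -0.09). The photosystem I assembly rows ycf3 and ycf4 differed by -0.20 and 0.17, rbcL by 0.04 (SE 0.08), and the other coding genes by -0.49 to 0.12. Of the 21 tRNA rows 3 passed, all lower (trnA, trnR and trnG), against 7 of all 105 plastid rows. Of these 21 rows 15 lay below 0 (median -0.18), against 59 of 105.

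The target named by the editor did not differ detectably between the days. The rpl2 row (154104 to 155605, plus strand) had 1003 against 1038 and 1160 CPM with pGWB2 and 1083 against 1527 and 888 CPM with pMDC32, so the 2 dpi value lay between the 3 dpi values in pMDC32 leaves. Its log2 difference was -0.17 (SE 0.13, 95% interval -0.43 to 0.10, edgeR adjusted p = 0.415). The rpl23 row beside it, also of the large ribosomal subunit, differed by -0.16 (SE 0.13, 95% interval -0.42 to 0.10). Both intervals use the pooled spread, not the row's own. Over all 9 libraries the differences were -0.34 (SE 0.20) for rpl2 and -0.35 (SE 0.17) for rpl23, neither passing (edgeR adjusted p = 0.318 and 0.296).

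Over all 9 libraries, with the group as covariate, the transgene was the single row that passed (log2 difference -1.75, SE 0.27, edgeR adjusted p = 0.016), and leaving out either 2 dpi editor library or any of 3 of the 4 editor libraries of 3 dpi raised its edgeR adjusted p above the threshold (0.0686 to 0.268). Of plastid rows 0 of 105 passed by edgeR (0%), and 12 had an unadjusted p under 0.05. With DESeq2 the calls were trnA and trnR (2 rows, both lower at 2 dpi), and with limma-voom there were 0. The smallest p belonged to trnA (-0.64, SE 0.18) and trnR (-0.73, SE 0.20), both with an edgeR adjusted p of 0.209. They were followed by psbA (0.37, SE 0.12), trnV (-0.45, SE 0.15), atpI of the ATP synthase (0.31, SE 0.11), rps16 (-0.41, SE 0.15), trnI (-0.44, SE 0.16), petB for cytochrome b6 (0.30, SE 0.12), rpoC2 (-0.58, SE 0.24) and psbZ (0.24, SE 0.10).

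All 10 of these rows had the same sign in the 3 groups, as did 42 of all 105 plastid rows. The fit that ranked them favours rows whose groups agree, so this is a description and no separate evidence. The atpI row had 2346 against 1622 and 1913 CPM in P19 leaves, 2520 against 2103 and 1830 CPM with pGWB2 and 2159 against 1924 and 1949 CPM with pMDC32, higher at 2 dpi in each group. For rpoC2 the P19 difference was -1.33, against -0.26 and -0.23 in the editor groups. The rrn16 row, at -0.98 in editor leaves, stood at -0.31 (SE 0.34) over 9 libraries, and rrn23 went from -0.41 to 0.15 (SE 0.28), neither passing there. Of the other rows called in editor leaves, ccsA stood at -0.22 (SE 0.18), trnG at -0.38 (SE 0.17) and rrn4.5 at -1.02 (SE 0.44) over 9 libraries, none passing. The psbD and ndhH rows stood at 0.21 (SE 0.11) and 0.01 (SE 0.22). Without P19 replicate 1, 2 rows passed (trnR and rrn16), and with the sequencing lane as covariate 3 did (trnR, trnA and rrn16). Only pMDC32 replicate 3 came from lane 5, and lane 8 held P19 replicate 1 beside pMDC32 libraries. With the group terms, the lane terms fit P19 replicate 1 and pMDC32 replicate 3 exactly. That setting in effect sets both libraries aside and is no separate check.

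The day difference of P19 leaves had a wider spread than that of editor leaves. Replicate 1 minus the mean of replicates 2 and 3 had an SD across plastid rows of 0.708 in P19 leaves, against 0.321 for pGWB2 and 0.268 for pMDC32. It exceeded 2-fold in 22 rows of P19 leaves (15 lower, 7 higher), in 4 with pGWB2 and in 0 with pMDC32. Replicates 2 and 3, labelled with the same day, differed with an SD of 0.392, 0.266 and 0.235. Across rows the P19 difference correlated at 0.0882 with that of pGWB2 and at -0.197 with that of pMDC32 (Pearson, a description over 105 rows). Its Spearman correlation with row length was -0.29 in P19 leaves and 0.102 and 0.175 in the editor groups, and the part of transcript length in it was not tested. P19 has a single library of 2 dpi, from sequencing lane 8, while its 3 dpi libraries came from lane 4. In P19 leaves a day difference, a lane difference and a property of that library therefore cannot be told apart.

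The difference between editor and P19 leaves in the day effect passed in 40 of 105 plastid rows by edgeR (38.1%), 23 with a higher and 17 with a lower effect in editor leaves. P19 replicate 1 is the only P19 library at 2 dpi and the only one from lane 8. It is taken in this test to vary like the others. It was already known to stand apart, so the count describes that library against the rest and is no separate evidence of a day effect in P19 leaves. With each row's own spread alone 0 rows passed (43 at an unadjusted p under 0.05), without pGWB2 replicate 1 there were 0 and without pMDC32 replicate 1 there were 20. The split of directions depended on the rows scaled, since without rRNA and tRNA rows it was 17 higher and 22 lower.

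Ribosomal protein and RNA polymerase rows lay mostly below the 3 dpi mean in P19 replicate 1. This held in 7 of 9 large subunit, 10 of 12 small subunit and 4 of 4 polymerase rows, against 54 of 105 plastid rows. The rpl32 row was an exception at 0.69, and of the 21 tRNA rows 9 lay below and 12 above. In the cluster from rpl23 to rpoA, which encodes ribosomal proteins and the alpha subunit of the polymerase, all 11 rows lay below the 3 dpi mean in P19 leaves (median -1.16), while the medians were -0.02 and 0.00 in the editor groups. The day effects differed in 8 of the 11, against 21.9% of plastid rows in that direction. The rpl22 row had 102 against 326 and 257 CPM in P19 leaves, 277 against 281 and 257 CPM with pGWB2, and 311 against 350 and 239 CPM with pMDC32 (difference of effects 1.57, SE 0.29, edgeR adjusted p = 0.00436). P19 replicate 1 thus lay below the other 8 libraries. The same was true of rps19, which had 59.2 CPM there and 132 to 191 CPM elsewhere.

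The rpoB operon, for the beta subunits of the polymerase, differed in 3 of 3 rows, against the same 21.9%. Its rpoC1 row had 218 against 966 and 577 CPM in P19 leaves and 437 to 646 CPM in editor leaves, so the P19 libraries were both the lowest and the highest (difference of effects 1.59, SE 0.35, edgeR adjusted p = 0.0054). The ndhC operon of the NDH complex also differed in 3 of 3 rows (21.9% of plastid rows in that direction). For ndhK the P19 libraries had 574 against 1982 and 1090 CPM and the editor libraries 803 to 1226 CPM (1.72, SE 0.38, edgeR adjusted p = 0.0054).

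Photosystem II and cytochrome b6f rows lay mostly above the 3 dpi mean in P19 replicate 1, in 13 of 15 and 5 of 6 rows, against 51 of 105 plastid rows. Photosystem I was divided, with 3 of 5 rows above and psaA and psaB below, at -0.57 and -0.55. The exceptions in the other lists were psbN (-0.24), psbD (-0.03) and petA (-0.41), and psbT stood at 0.09. The psbE operon differed in 4 of 4 rows (-0.88 to -0.82), against 16.2% of plastid rows in that direction, with psbE at 16249 against 8828 and 10860 CPM in P19 leaves and 9189 to 10693 CPM in editor leaves. The petN row, for a small subunit of cytochrome b6f, had 4172 against 1499 and 1991 CPM in P19 leaves and 1718 to 2320 CPM in editor leaves (-1.27, SE 0.28, edgeR adjusted p = 0.0054). The psbK row of photosystem II had 9371 against 3918 and 4900 CPM and 4312 to 5583 CPM in editor leaves (-1.11, SE 0.27). For psbA the P19 libraries had 823134 against 439505 and 550365 CPM, and the difference of effects was -0.56 (SE 0.16). The rRNA rows rrn16 (-1.75, SE 0.27) and rrn23 (-1.47, SE 0.23) differed in both respects, lower at 2 dpi in editor leaves and higher at 2 dpi in P19 leaves, each with an edgeR adjusted p of 0.00113. For trnA the effects were -0.45 in P19 and -0.75 in editor leaves (difference -0.30, SE 0.31, edgeR adjusted p = 0.45).

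**Figure D3:**
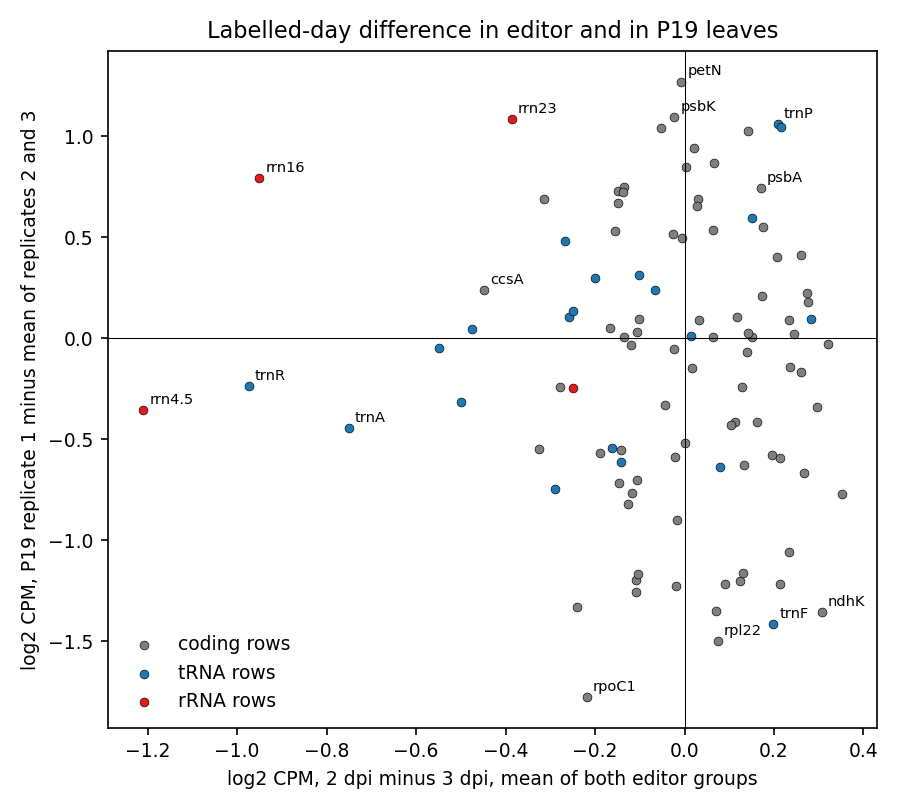
Log2 CPM difference, 2 dpi minus 3 dpi, as the mean of both editor groups (x axis) and in P19 leaves (y axis, 1 library against 2), one point per plastid row, coloured by RNA class. The y values spread from -1.78 (rpoC1) to 1.27 (petN), most coding rows lie near 0 on the x axis, and rrn16 and rrn23 lie at the upper left.

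**Figure D4:**
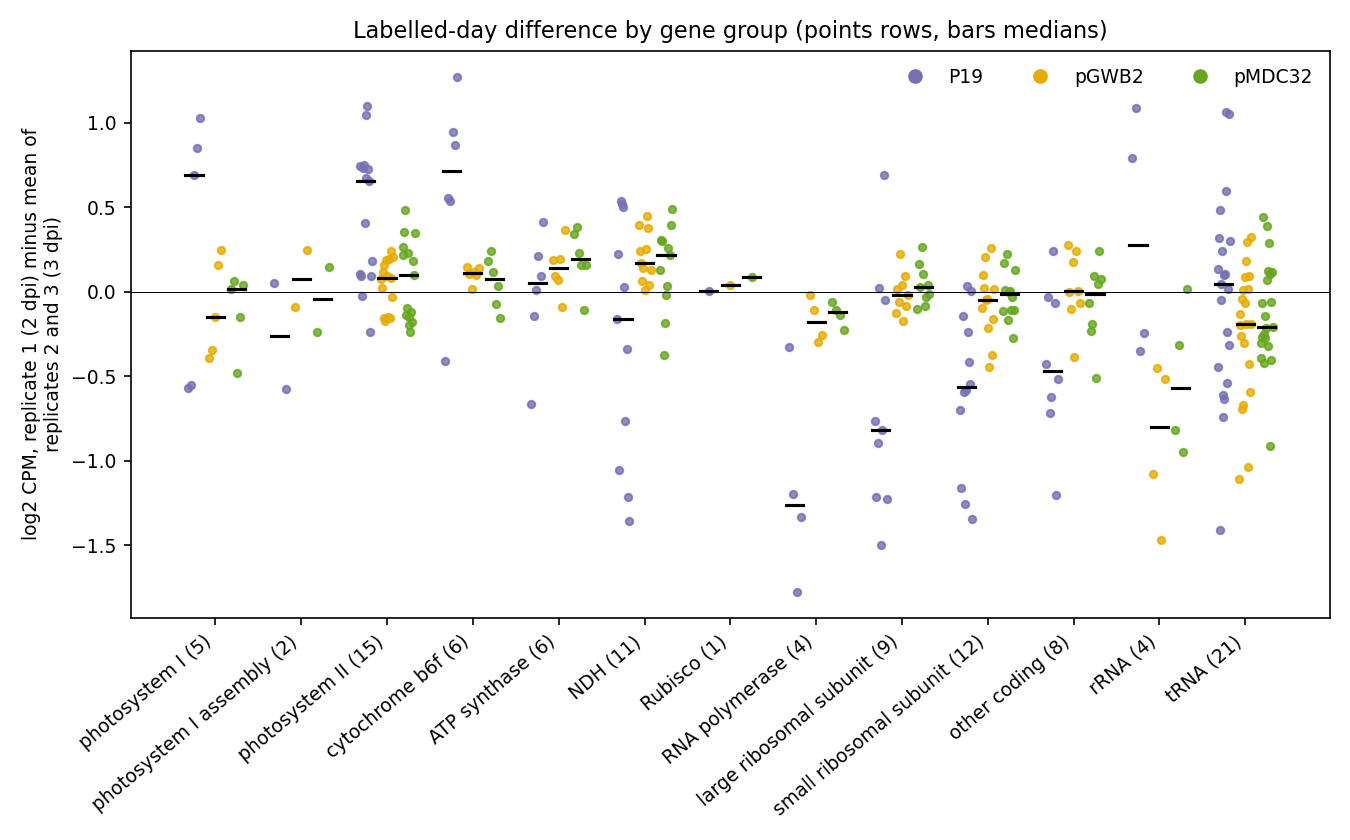
Log2 CPM difference, replicate 1 (2 dpi) minus the mean of replicates 2 and 3 (3 dpi), for each row of 13 lists of plastid functions and each group, with the number of rows in brackets and bars at the medians. Medians of the RNA polymerase rows are -1.27 in P19 leaves and -0.18 and -0.12 in the editor groups, and those of the rRNA rows are 0.27, -0.80 and -0.57.

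As shares of all counted reads, 0 of 4 classes passed after adjustment. With 27 arrangements, a class at the smallest possible p passes only if most of the 4 classes reach it too, so this count says little. The transgene share differed by -0.309 points over 9 libraries, 2 dpi minus 3 dpi (exact permutation p = 0.037, adjusted 0.074). The psbA share was 61.1% against 47.2% and 52.6% in P19 leaves, 49.9% against 48.5% and 47.1% with pGWB2 and 49.8% against 44.0% and 47.6% with pMDC32. Replicate 1 was highest in each group, by 5.78 percentage points on average (exact permutation test within groups, two-sided, p = 0.037, the smallest that 27 arrangements allow, adjusted 0.074 over 4 classes). In editor leaves the difference was 3.07 points (exact permutation p = 0.222, where 9 arrangements cannot give a p below 0.111). The tRNA share, which includes the trnK row with matK inside it, was 1.18% against 2.43% and 1.88% in P19 leaves, 1.86% against 1.98% and 2.52% with pGWB2 and 1.93% against 2.65% and 2.38% with pMDC32 (-0.65 points, exact permutation p = 0.0741). The rRNA share was 0.0380% against 0.0583% and 0.0584% with pGWB2 and 0.0496% against 0.0826% and 0.0672% with pMDC32, lower at 2 dpi in both, and 0.0890% against 0.0603% and 0.0615% in P19 leaves, higher at 2 dpi.

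Transcript levels per length are given for editor leaves as a description, ranked over the 105 plastid rows. By mean CPM per kb, psbA (465100 at 2 dpi and 414200 at 3 dpi), rbcL (110900 and 106300), psbL (61750 and 68120) and psbF (59930 and 65950) held ranks 1 to 4 at both. The largest moves were those of trnR, from rank 47 at 3 dpi (2353 CPM per kb) to 64 at 2 dpi (1191), and of trnA, from 24 (6563) to 37 (4006). The trnN row went from 77 to 84 and ccsA from 55 to 62. The psaC row moved from rank 14 at 3 dpi (15780 CPM per kb) to 19.5 at 2 dpi (12660, tied with atpH), and psbC from 16 (14340) to 13 (16840).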

How the data were processed

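The deposited values are raw read counts per gene, made by the authors with 1 column per library and not normalized. Per the submitters' processing notes, the tools included HISAT2 (version 2.2.1), featureCounts (2.0.1) and DESeq2 (1.42.0), with Trim Galore (0.6.10) and FastQC (0.12.1). Per the labels' protocols, RNA was depleted of rRNA and libraries were directional (dUTP). No source used here states the build, the strand setting or how multiply mapped reads were handled, so rows of the inverted repeat and rows that overlap (9 rows lie on the strand of rps12 inside its span, and matK lies inside trnK) are uncertain. Column names gave the lane of each library.

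Tests were made here with edgeR 4.0.16 in R 4.3.3, with TMM factors, filterByExpr (passed by all 106 rows) and quasi-likelihood tests, two-sided, Benjamini-Hochberg adjusted over all 106 rows, threshold 0.05. The 9-library model held the group and the labelled day. The 6 editor libraries were normalized and modelled on their own, while printed CPM use factors from all 9 libraries. The interaction model compared the day effect of editor leaves with that of P19 leaves. Differences within a group are on the log2(CPM + 0.01) scale. Only plastid and transgene rows make up the totals, so each difference is relative to these rows, and a common change of all plastid RNA would not show. Shares were compared by exact permutation within groups. Libraries held 32457135 to 44392760 counted reads, and the limit of 3 counts for a 0 reflects counting error alone. Chi-square per degree of freedom between replicates was 1350 to 21040, far above sampling noise, and all 9 were kept as separate. A search for 8 nuclear, mitochondrial and bacterial marker names found 0, so other genomes were not analysed here.

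Alternatives were RLE and upper-quartile factors, no filter, DESeq2, limma-voom 3.58.1, leaving out rRNA and tRNA rows, psbA or each library, a replicate block, the lane as covariate and other group covariates. The newer quasi-likelihood method, no pooling of the spread, and the vector interaction were added after seeing the data. Named are the transgene, rpl2, rpl23, the rRNA operon region, in each model the rows that passed (at most 20, and at least 10 by smallest p), and members of 13 lists of plastid functions and 14 gene regions. The infA row is on no function list, and 1 row that the rule names is not reported here. Members, lists and tests were chosen with earlier results of these data known. Scripts were tested on simulated data.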

Additional observations from a re-analysis of the deposited data

Results flagged for a closer look

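The labelled-day effect differed between editor and P19 leaves in 40 of 105 plastid rows by edgeR's test of the interaction, and in 0 with no pooling of the spread. Those below are each given as the log2 day effect (2 dpi minus 3 dpi) of editor leaves minus that of P19 leaves. The P19 effect rests on a single library of 2 dpi, P19 replicate 1, in every row. That library came from lane 8 and the other P19 libraries from lane 4. That library was already known to stand apart, so these values describe it against the others and do not separate a day effect from that library. With 3 libraries in a group, no formal test for a single far library was made.

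The day effect was higher in editor leaves for some ribosomal protein rows, at 1.57 for rpl22, 1.42 for rps19, 1.31 for rpl14, 1.30 for rps3, 1.22 for rpl36 and 0.69 for rpl23. In this direction 5 of 9 large and 4 of 12 small subunit rows passed, against 23 of 105 plastid rows. The rpl32 row passed in the other direction (-0.66). The initiation factor row infA stood at 1.07. The RNA polymerase rows rpoC1 and rpoB stood at 1.59 and 1.09. Among NDH rows the values were 1.72 for ndhK, 1.33 for ndhC and 1.12 for ndhH, and the ATP synthase row atpA had 0.94.

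It was lower in editor leaves for the rRNA rows rrn16 (-1.75) and rrn23 (-1.47) and for the arginine tRNA row trnR (-0.74). It was also lower for some photosystem and cytochrome b6f rows, at -1.27 for petN, -1.11 for psbK, -1.09 for psbI, -1.0 for psaC and -0.87 for psbE. In this direction 3 of 5 photosystem I, 7 of 15 photosystem II and 3 of 6 cytochrome b6f rows passed, against 17 of 105 plastid rows.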

How the results depend on the processing

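Depth limits the shortest rRNA rows (rrn4.5 with 73 to 429 reads, rrn5 with 38 to 88), and at 2 dpi each group has 1 library. Leaving that library out leaves a lone 2 dpi editor library that is assumed to vary like the others. Over 9 libraries 0 plastid rows passed, against 2 with DESeq2 and 0 to 2 with single libraries left out. With the lane as covariate 3 passed, in a fit that in effect sets P19 replicate 1 and pMDC32 replicate 3 aside. Over 6 editor libraries 7 passed, against 2 with upper-quartile factors, 11 with DESeq2, 2 with no group covariate, 0 with no pooling of the spread and 0 to 10 with single libraries left out. Without rRNA and tRNA rows 1 passed, since 6 of the 7 are such rows. RLE factors gave 9, of which 2 were higher at 2 dpi. Interaction calls ranged from 0 (without pGWB2 replicate 1) to 57 (without P19 replicate 3) with single libraries left out. The interaction without P19 replicate 1 could not be run. Upper-quartile factors moved the median of all rows from -0.0336 to 0.0701 over 6 libraries and from 0.0561 to 0.265 in the interaction. The transgene difference over 9 libraries was -1.72 with editor against P19 as covariate (edgeR adjusted p = 0.172) and -1.88 to -1.64 with single libraries left out. Over 6 libraries with no pooling it was -1.73 (edgeR adjusted p = 0.18), and with single libraries left out -1.83 to -1.56, passing each time. With psbA left out, the tRNA share differed by -0.878 points (exact permutation p = 0.037), and the rRNA share by 0.0106 in place of -0.00584. With single libraries left out, the psbA share difference ran from 3.07 to 7.59 points, the rRNA share from -0.0228 to 0.00389 (0.00141 without pGWB2 replicate 1) and the transgene share from -0.463 to -0.158. Where no construction is named, the cause was not tested.

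Same-numbered libraries had correlations of their deviations from -0.524 to 0.719, not all above 0.1, and the main models did not pair them. The highest value was that of replicate 1 of pGWB2 with replicate 1 of pMDC32, which also share the label 2 dpi. Values for replicate 1 repeat by construction the correlations of the day differences given above, so they cannot tell pairing from labelled day. A replicate block gave 0 calls over 9 libraries, the same 7 over 6, and 40 in the interaction (38 shared). Of 1605 values of single named rows over the 22 settings, 0 reversed among called rows, and 71 calls were lost and 27 gained.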
